A study of Mus musculus with 6 samples.

Results

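Expression of 7 known regulators of uterine receptivity and the progesterone (P4) response, *Msx1*, *Msx2*, *Sox17*, *Gata2*, *Foxo1*, *Arid1a* and *Errfi1*, was compared between control and *Gp130* ecKO uteri. They were taken by name from the 56748 genes in the deposited tables, and all 7 were among the 16605 genes kept by a filter on low counts. RNA came from the uterus of 6 females, 3 per group, at 1600 h on day 4 of pregnancy, before embryo attachment. Their background is given as C57BL/6 in the labels and as C57BL/6J in the study's methods. The *Gp130* ecKO females carried 1 *Ltf*-iCre allele and were homozygous for floxed *Gp130* (*Il6st*), the receptor subunit through which LIF signals. The labels give the control genotype as WT, and the study's methods allow either floxed females without iCre or wildtype females, so the controls lacked iCre. All were sexually mature, and females of both groups were mated with wildtype males. *Ltf* encodes lactoferrin, which is made in the uterine epithelium and in neutrophils, and iCre from this locus acts where *Ltf* is on. No source gives the relation between the females, so whether they are independent is not known. The p-values set the difference between the groups against the spread between these uteri.

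Before implantation, P4 acting through its receptor PGR halts growth of the luminal epithelium, and a short window of receptivity opens. MSX1 and MSX2 are homeobox repressors of the uterine epithelium, and MSX1 declines as the embryo attaches. SOX17 and GATA2 are transcription factors that act with PGR on targets such as *Ihh*, and both are also made by endothelial cells. FOXO1 is a forkhead factor of the epithelium and of the decidualizing stroma. ARID1A is a subunit of the BAF chromatin remodelling complex, and ERRFI1 (MIG-6) is a P4-induced inhibitor of the EGF receptor.

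In edgeR's fit over all 6 uteri, *Msx1* was at 2.49-fold, *Sox17* at 1.72-fold and *Gata2* at 2.17-fold the control level in *Gp130* ecKO, and *Foxo1* was at 0.492-fold. *Msx2* was at 3.50-fold from a low count, *Arid1a* at 1.18-fold and *Errfi1* at 1.08-fold. None of the 7 passed an adjusted p of 0.05 in the quasi-likelihood test, which called 26 of the 16605 genes (0.157%), all of them by more than 2-fold. An unadjusted p below 0.05 was reached by 4 of the 7 (*Msx1*, *Msx2*, *Sox17* and *Foxo1*) and by 25% of all tested genes, 12.1% with higher and 12.9% with lower levels in *Gp130* ecKO. With control 2 left out, 4 of the 7 passed the adjusted threshold (*Msx1*, *Sox17*, *Gata2* and *Foxo1*), against 5.38% of the 17142 genes tested without that uterus. Control 2 was singled out from these same data as the control nearest to *Gp130* ecKO. Its omission therefore favours calls, and p-values from it are no independent support.

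RefSeq promoter windows on GRCm38.p6 were found for 6 of the 7 genes, with no entry for *Sox17*. The 250 bases before a start are shown for *Msx1*, *Msx2*, *Gata2* and *Foxo1*, whose levels differed most between the groups, and for *Errfi1*, whose first window alone held the letters of MSX and GATA factors. They are printed 5′ to 3′ on the strand of the gene, with matches to the searched letters in capitals. Both strands were searched for TTCNNNGAA, the STAT site, for the estrogen response element by its consensus, and for AGAACA, the core of the progesterone response element. TAATTG was searched for MSX factors, AACAAT for SOX factors, AGATAA for factors of the GATA family and GTAAACA for FOXO factors. The letters CCAAT, the CCAAT box, were added after the windows had been read. Matches of TAATTG and of CCAAT on opposite strands can share bases.
Msx1, chr5:37824586-37824835 (minus strand): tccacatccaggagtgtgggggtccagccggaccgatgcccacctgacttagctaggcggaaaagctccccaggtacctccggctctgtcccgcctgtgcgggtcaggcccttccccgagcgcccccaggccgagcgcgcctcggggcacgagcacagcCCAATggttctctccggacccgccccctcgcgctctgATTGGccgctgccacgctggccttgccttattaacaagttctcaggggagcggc
Msx2, chr13:53472781-53473030 (minus strand): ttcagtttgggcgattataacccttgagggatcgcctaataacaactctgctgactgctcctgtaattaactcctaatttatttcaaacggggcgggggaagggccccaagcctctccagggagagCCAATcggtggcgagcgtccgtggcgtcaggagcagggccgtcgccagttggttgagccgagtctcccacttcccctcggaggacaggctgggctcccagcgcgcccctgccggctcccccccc
Gata2, start 2, chr6:88198414-88198663 (plus strand): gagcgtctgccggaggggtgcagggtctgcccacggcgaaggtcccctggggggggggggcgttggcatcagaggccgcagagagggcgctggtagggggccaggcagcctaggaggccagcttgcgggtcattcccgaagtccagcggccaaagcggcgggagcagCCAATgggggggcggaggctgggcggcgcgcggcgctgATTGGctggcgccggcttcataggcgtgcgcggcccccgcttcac
Foxo1, chr3:52268087-52268336 (plus strand): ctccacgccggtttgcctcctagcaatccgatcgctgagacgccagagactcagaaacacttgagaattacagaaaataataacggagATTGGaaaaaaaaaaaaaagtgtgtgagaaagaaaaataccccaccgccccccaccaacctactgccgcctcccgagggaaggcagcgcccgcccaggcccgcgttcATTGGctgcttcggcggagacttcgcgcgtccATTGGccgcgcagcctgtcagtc
Errfi1, start 1, chr4:150853546-150853795 (plus strand): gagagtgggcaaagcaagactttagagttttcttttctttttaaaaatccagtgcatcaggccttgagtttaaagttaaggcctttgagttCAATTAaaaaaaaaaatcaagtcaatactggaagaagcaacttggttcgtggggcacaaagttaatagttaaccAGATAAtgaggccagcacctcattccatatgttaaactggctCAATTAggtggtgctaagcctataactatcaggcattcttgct

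CCAAT was in 5 of the 9 windows, 1 each of *Msx1*, *Msx2*, *Gata2*, *Foxo1* and *Errfi1*, against 33.8% of all 32851 promoter windows. The other 7 motifs were found only in the first window of *Errfi1*, which held TAATTG on the opposite strand from 159 and again from 43 bases before the start, and AGATAA from 85 bases before it. Over all windows TAATTG was in 7.17% and AGATAA in 9.99%. The STAT letters were in 7.02%, the SOX letters in 9.42%, the FOXO letters in 3.17%, the core of the progesterone response element in 16.1% and the estrogen response element in 0.0639%. A match is a description of letters, and a window without one says nothing of binding elsewhere.

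Expected counts summed to between 13960748 (control 3) and 25906443 (control 2) per uterus. Levels are given as CPM, the count relative to the library size scaled by edgeR's TMM factors, and errors are the SD of 3 uteri. *Il6st* was counted over the whole gene and all cells of the uterus. It was at 631 (control 1), 678 (control 2) and 452 (control 3) CPM in the control and at 349.8 to 388 CPM in *Gp130* ecKO. Its BH-adjusted p was 0.1197 with edgeR's quasi-likelihood test and 0.03456 with DESeq2. Leaving out control 2, which had the highest *Il6st*, moved its log2 fold change from −0.68 to −0.53 (BH-adjusted p = 0.1948 with edgeR). Control 2 stood apart from the other controls. It was at 0.029 on the first dimension of a multidimensional scaling, where controls 1 and 3 were at 2.09 and 2.08 and the *Gp130* ecKO uteri from −1.47 to −1.32. Each regulator, and each listed gene named below whose call turns on control 2, is therefore given with and without it. The choice of control 2 came from these same data and its omission favours calls, so such p-values describe sensitivity only. Mitochondrial genes held 3.98% to 5.3% of the counts in control uteri and 2.4% to 3.78% in *Gp130* ecKO, without overlap, and the part of this in the results was not tested.

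Markers of the cell types of the uterus differed between the groups in the same libraries. The 6 epithelial markers summed to 1729.9 to 3215 CPM in control uteri and 4323 to 5754 CPM in *Gp130* ecKO. Of the 6, 5 had a log2 fold change above 0, and 3 were higher without overlap, against 15.7% of all tested genes. The 8 endothelial markers summed to 521 to 1202 CPM in control uteri and 256 to 447 CPM in *Gp130* ecKO. All 8 had a log2 fold change below 0, and 6 were lower without overlap, against 15.6% of all tested genes. For the 6 stromal markers the sums were 2971 to 3973 and 1779 to 2446 CPM, with 3 of 6 lower without overlap, against the same 15.6%. Sums overlapped for smooth muscle (448 to 1919 and 339 to 2209 CPM), macrophages (125 to 191 and 68.4 to 155 CPM), neutrophils (2.07 to 5.95 and 0.633 to 3.61 CPM), lymphocytes (13.7 to 22.7 and 5.80 to 20.2 CPM) and red blood cells (174 to 334 and 39.5 to 315 CPM). Of the 3 tested neutrophil markers, 2 were lower without overlap, both at an unadjusted p below 0.05 with edgeR. Over all tested genes these shares were 15.6% lower without overlap and 12.9% lower at that p. The 5 gland markers ranged from 108 to 1063 CPM in control uteri and reached 8684 CPM in *Gp130* ecKO 1, while *Gp130* ecKO 2 and 3 were at 154 and 202 CPM. Blastocyst markers summed to at most 0.407 CPM in any uterus. No marker passed an adjusted p of 0.05 in edgeR's quasi-likelihood test. In whole tissue, fewer cells of a type and less RNA per cell cannot be told apart, and the part of these shifts in the levels of the 7 regulators was not tested.

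**Figure D1:**
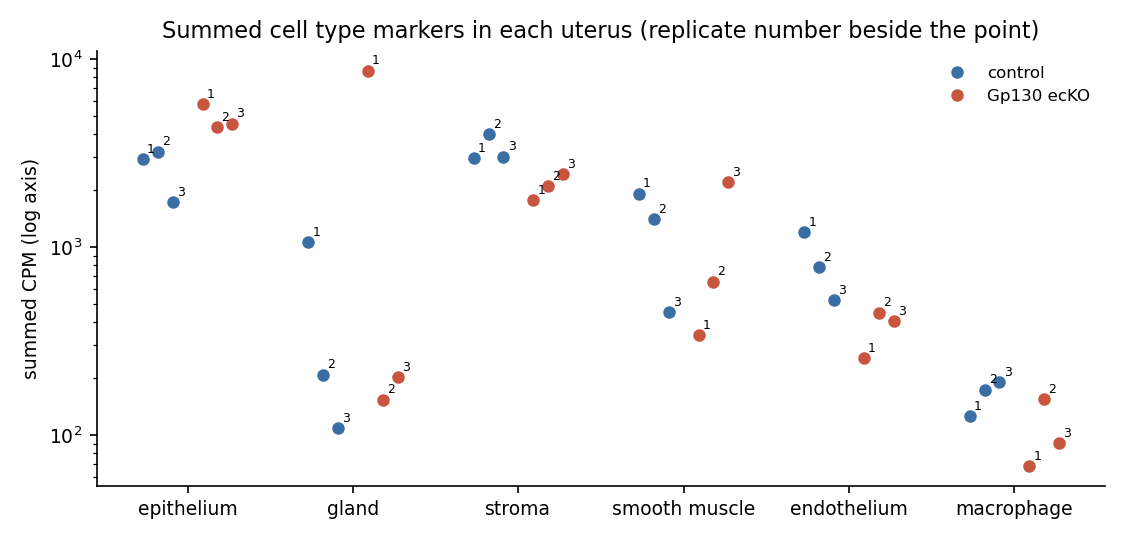
Summed CPM of the marker genes of each cell type in each uterus on a log axis, with the replicate number beside each point. Epithelial sums are higher and endothelial and stromal sums lower in every *Gp130* ecKO uterus than in every control, and the other sums overlap.

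The CPM of *Msx1* (ENSMUSG00000048450, chromosome 5 of GRCm39, 37977829 to 37981928) was 209.8 (control 1), 563 (control 2) and 207 (control 3), and the *Gp130* ecKO uteri held 784, 811 and 844 CPM in the order of their numbers. The groups did not overlap, and control 2 lay between the other controls and *Gp130* ecKO. Means were 326 ± 205 CPM in the control and 813 ± 29.9 CPM in *Gp130* ecKO (SD, n = 3 each). edgeR put the log2 fold change at 1.32 with a standard error of 0.41, an unadjusted 95% interval of 0.37 to 2.27 and a BH-adjusted p of 0.1195. Control 2 was 2.71-fold the mean of the other controls, and the *Gp130* ecKO mean was 3.91-fold that mean and 1.44-fold control 2. Leaving out control 2 gave 2.00 ± 0.23 (SE) and a BH-adjusted p of 0.01135 with edgeR, and leaving out any 1 of the other uteri kept the adjusted p above 0.05. An exact two-sided permutation test gave p = 0.1, the smallest that 3 uteri against 3 allow.

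*Msx2* (ENSMUSG00000021469, chromosome 13 of GRCm39, 53620914 to 53627110), which acts redundantly with *Msx1* in the uterus, was far less abundant, with 16 to 581 counts per uterus. Its CPM was 2.83 (control 1), 6.21 (control 2) and 1.07 (control 3), against 5.70, 6.42 and 24.1 in the *Gp130* ecKO uteri. *Gp130* ecKO 1 was below control 2, so the groups overlapped, and *Gp130* ecKO 3 was well above all other uteri. The fitted log2 fold change was 1.81 ± 0.75 (SE, BH-adjusted p = 0.1928 with edgeR). It moved to 2.60 without control 2 and to 0.84 without *Gp130* ecKO 3, and passed the threshold in neither fit. Per transcript length, *Msx1* was 94.6 to 223 times *Msx2* in control uteri and 44.7 to 176 times in *Gp130* ecKO uteri, on the deposited TPM scale.

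For *Sox17* (ENSMUSG00000025902, chromosome 1 of GRCm39, 4561151 to 4567784) the control values were 347 (control 1), 564 (control 2) and 307 (control 3) CPM, and those of *Gp130* ecKO uteri 1 to 3 were 640.3, 783 and 679 CPM. As for *Msx1*, the groups did not overlap and control 2 was the control nearest to *Gp130* ecKO. The mean was 406 ± 138 CPM in the control against 701 ± 73.6 CPM in *Gp130* ecKO (SD, n = 3 each), and edgeR's log2 fold change was 0.79 ± 0.27 (SE) at a BH-adjusted p of 0.1401. Leaving out control 2 brought it to 1.13 at a BH-adjusted p of 0.04562 with edgeR. Pearson's r of *Sox17* with the marker sums, both as log2(CPM + 0.5) over the 6 libraries and with no test, was 0.861 for epithelium and −0.569 for endothelium. The same r was 0.865 and −0.666 for *Msx1*, 0.753 and −0.348 for *Msx2*, and 0.74 and −0.502 for *Gata2*. It was −0.749 and 0.764 for *Foxo1*, 0.496 and −0.563 for *Arid1a*, and 0.68 and −0.681 for *Errfi1*. With the stromal sums r was −0.513 for *Sox17*, −0.522 for *Msx1*, −0.276 for *Msx2* and −0.33 for *Gata2*. For *Foxo1*, *Arid1a* and *Errfi1* it was 0.548, −0.642 and −0.412. The strongest r was with another sum for *Msx2* (lymphocytes, −0.814), *Arid1a* (smooth muscle, −0.743) and *Errfi1* (red blood cells, −0.789). The order of the uteri differed within the groups. Within *Gp130* ecKO, *Sox17* had the same order as the endothelial sums and the reverse order of the epithelial sums. Within the control it had the same order as the epithelial sums, and the highest endothelial sum was in control 1 and not in control 2. The long noncoding RNA *Gm37587* lies across *Sox17* on the opposite strand with 10 to 105 counts per uterus, against at least 4606 for *Sox17*.

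Controls 1 and 3 had the lowest levels of *Gata2* (ENSMUSG00000015053, chromosome 6 of GRCm39, 88170559 to 88184018), which was at 93.7 (control 1), 354 (control 2) and 96.1 (control 3) CPM in the control and at 284, 498 and 399 CPM in the *Gp130* ecKO uteri. Control 2 was above *Gp130* ecKO 1, so the groups overlapped. edgeR's log2 fold change was 1.12 ± 0.54 (SE), with a 95% interval of −0.13 to 2.37 and a BH-adjusted p of 0.2391. Control 2 was 3.73-fold the mean of the other controls, the highest such ratio of the 7 genes. Without control 2 the estimate was 2.09 ± 0.29 (SE, BH-adjusted p = 0.01847 with edgeR).

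*Foxo1* (ENSMUSG00000044167, chromosome 3 of GRCm39, 52175757 to 52260642) went the other way, at 201 (control 1), 99.0 (control 2) and 149 (control 3) CPM in the control against 77.8, 68.8 and 73.7 CPM in the *Gp130* ecKO uteri. The groups did not overlap, and the spread within *Gp130* ecKO (73.4 ± 4.49 CPM, SD, n = 3) was small beside that within the control (149 ± 50.8 CPM, SD, n = 3). From edgeR the log2 fold change was −1.02 ± 0.26 (SE), with a 95% interval of −1.62 to −0.43 and a BH-adjusted p of 0.09284. An unadjusted p smaller than that of *Foxo1* was found for 4.97% of all tested genes, the lowest such share of the 7. Control 2 was again the control nearest to *Gp130* ecKO, and its omission gave −1.22 (BH-adjusted p = 0.0274 with edgeR).

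*Arid1a* (ENSMUSG00000007880, chromosome 4 of GRCm39, 133406304 to 133484080) was steady in the control at 89.6 (control 1), 98.3 (control 2) and 95.01 (control 3) CPM. The *Gp130* ecKO uteri had 125, 125 and 85.5 CPM, so that the third was below every control and the other two were above. edgeR gave a log2 fold change of 0.24 ± 0.19 (SE, BH-adjusted p = 0.4403), with a 95% interval from 0.874-fold to 1.61-fold. Without control 2 it was 0.31 (BH-adjusted p = 0.4113 with edgeR). *Errfi1* (ENSMUSG00000028967, chromosome 4 of GRCm39, 150938376 to 150955402) was at 127 (control 1), 144 (control 2) and 129.8 (control 3) CPM in the control and at 161, 131 and 142 CPM in the *Gp130* ecKO uteri, and its groups overlapped. Its log2 fold change of 0.12 ± 0.15 (SE, BH-adjusted p = 0.6593 with edgeR) had an interval from 0.845-fold to 1.39-fold, and it was 0.21 without control 2 (BH-adjusted p = 0.4988 with edgeR). A change within the intervals could not be told from no change with 6 uteri.

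**Figure D2:**
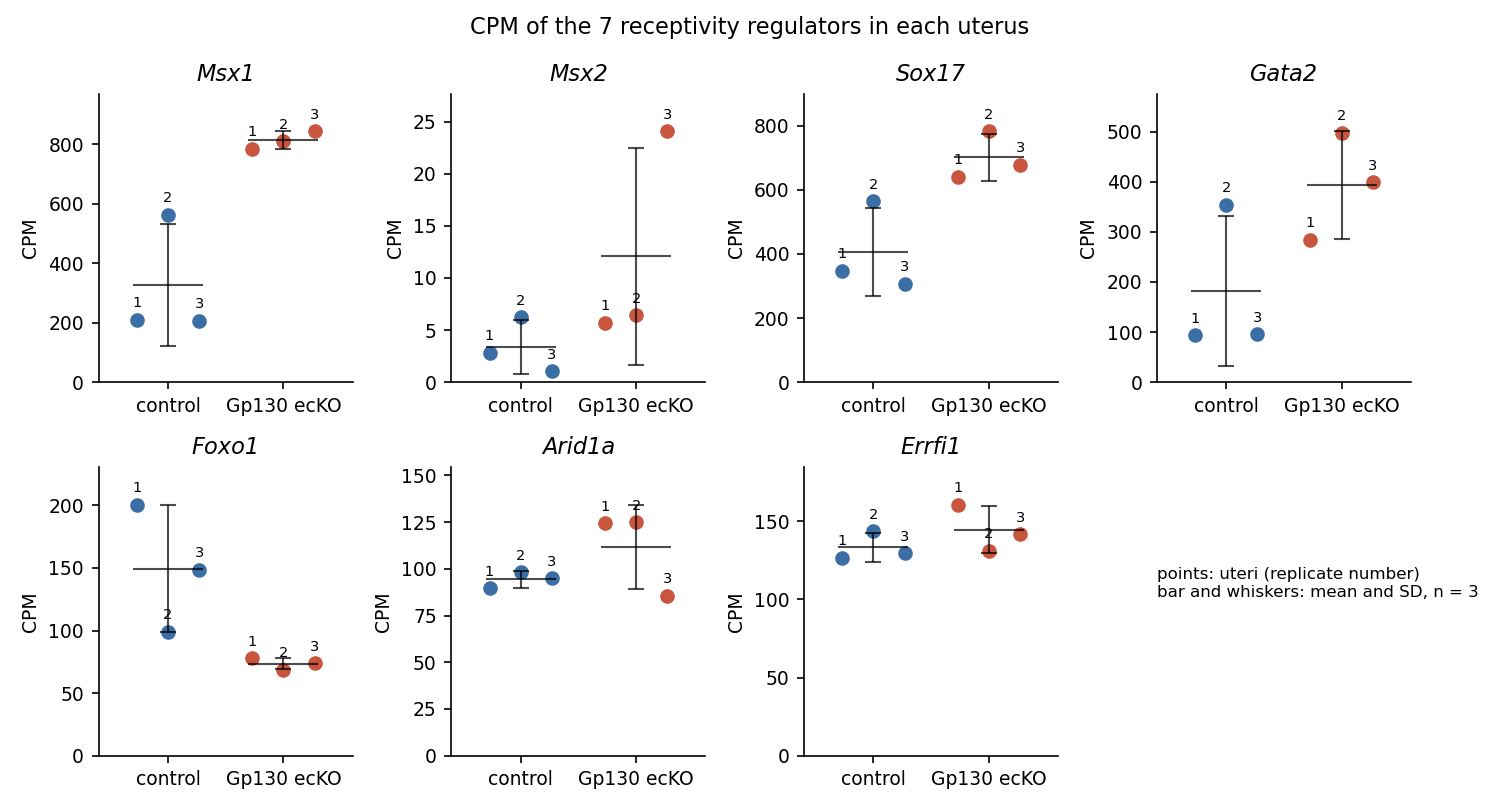
CPM of each regulator in the 6 uteri on linear axes, where points are uteri with their replicate number and the bar and whiskers are the mean and SD (n = 3). *Msx1* and *Sox17* are higher and *Foxo1* is lower in every *Gp130* ecKO uterus than in every control, and control 2 is the control nearest to *Gp130* ecKO for each of these.

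Between groups without overlap, 2 of the 7 genes were higher in *Gp130* ecKO (*Msx1* and *Sox17*) and 1 was lower (*Foxo1*). Among all tested genes 31.3% did not overlap, 15.7% higher and 15.6% lower. DESeq2 and a pair of other edgeR tests called more of the 7 and more of all genes. DESeq2 placed *Msx1*, *Sox17* and *Foxo1* below an adjusted p of 0.05, 3 of the 7 against 14.3% of the genes it tested. edgeR's exact test placed *Msx1* and *Foxo1* below it, against 8.99% of genes, and so did its likelihood ratio test, against 9.5%. In the legacy form of its quasi-likelihood test 0 of the 7 passed, against 0.0422% of all genes.

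**Figure D3:**
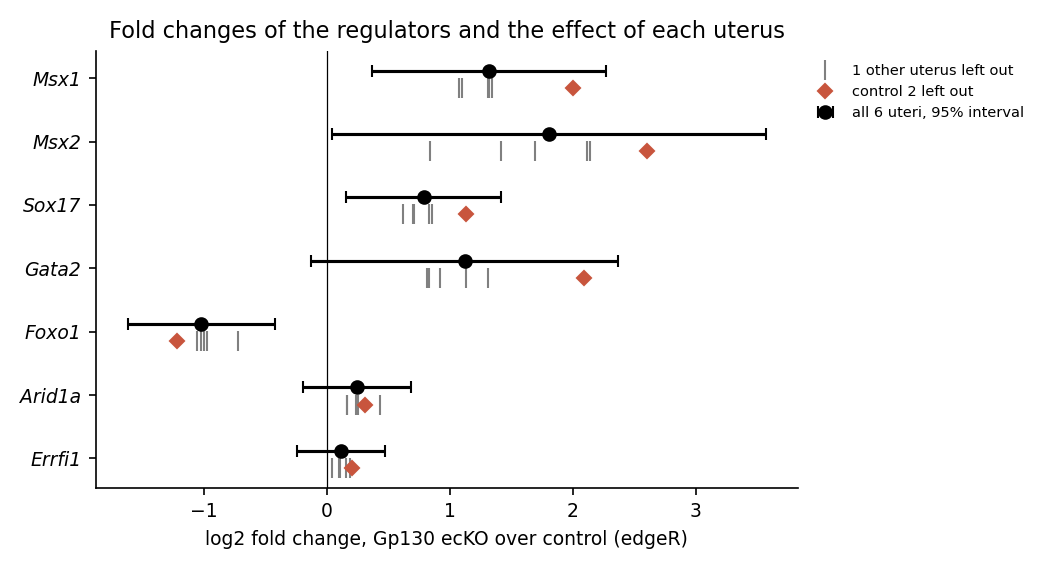
Log2 fold change of each regulator, *Gp130* ecKO over control, from edgeR's quasi-likelihood fit, where black points and lines are the estimate and 95% interval over 6 uteri, grey ticks leave out 1 other uterus and diamonds leave out control 2. Leaving out control 2 moved *Gata2* from 1.12 to 2.09 and *Msx1* from 1.32 to 2.00.

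The 7 genes were also compared with each other per transcript length, on the TPM scale as deposited. In the control, *Sox17* (294 ± 105 TPM, SD, n = 3) and *Msx1* (229 ± 142 TPM) led, and *Sox17* was above *Msx1* in each of the 3 uteri. *Gata2* (79.0 ± 66.7 TPM), *Errfi1* (59.1 ± 5.43 TPM), *Foxo1* (22.6 ± 7.02 TPM), *Arid1a* (15.4 ± 1.54 TPM) and *Msx2* (1.85 ± 1.39 TPM) followed. Of neighbours in that order, the ranges over uteri were separate for *Errfi1* and *Foxo1* and for *Arid1a* and *Msx2*, and overlapped for the other pairs. The order in *Gp130* ecKO began with *Msx1* (602 ± 49.9 TPM) and *Sox17* (575 ± 133 TPM), whose ranges overlapped, followed by *Gata2* (209 ± 74.2 TPM) and *Errfi1* (67.3 ± 8.22 TPM). *Arid1a* (19.3 ± 5.37 TPM) stood above *Foxo1* (11.8 ± 1.02 TPM) in all 3 *Gp130* ecKO uteri, whereas *Foxo1* was above *Arid1a* in 2 of the 3 controls. *Msx2* (6.66 ± 5.12 TPM) was again the lowest by mean, with a range that overlapped that of *Foxo1*.

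*Msx1*, *Sox17* and *Gata2* followed a similar profile across the 6 uteri, low in controls 1 and 3, higher in control 2 and high in *Gp130* ecKO, and *Foxo1* ran opposite to it. For *Gata2*, however, control 2 was above *Gp130* ecKO 1. Pearson's r of log2(CPM + 0.5) over these uteri was 0.981 for *Msx1* and *Sox17*, 0.96 for *Msx1* and *Gata2*, 0.973 for *Sox17* and *Gata2*, and −0.968 for *Msx1* and *Foxo1*. *Msx2*, *Arid1a* and *Errfi1* were less alike, with r of 0.824, 0.482 and 0.649 against *Msx1*. Among 10259 other genes with a mean of at least 10 CPM, 789 had an r above 0.9 with *Msx1*. These values describe 6 libraries that share the contrast between the groups, and no test was made of them.

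**Figure D4:**
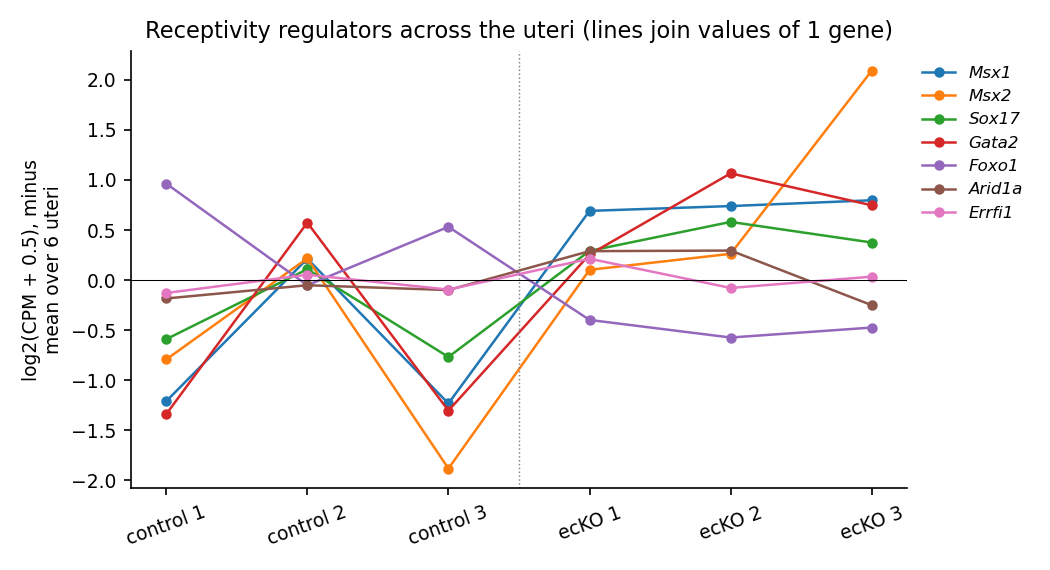
Log2(CPM + 0.5) of each regulator in each uterus, minus its mean over the 6 uteri, with lines joining the values of 1 gene. *Msx1*, *Sox17* and *Gata2* share a profile in which control 2 is nearer to *Gp130* ecKO than controls 1 and 3 are, and *Foxo1* is its mirror image.

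Relatives of the regulators were examined by family. No gene of these lists passed an adjusted p of 0.05 over all 6 uteri with edgeR's quasi-likelihood test, so they are described by their values, with 12.1% of all tested genes higher and 12.9% lower at an unadjusted p below 0.05. With DESeq2 over the same 6 uteri, 20 of 112 listed genes, the regulators included, were called at more than 2-fold. Of all 16605 genes, 1546 were called in that way. Of the 7 genes in the list of *Dlx* homeobox genes and *Msx3*, *Dlx5* and *Dlx6* passed the filter on low counts, and the rest had at most 2 counts in any uterus. *Dlx5* and *Dlx6*, neighbouring genes that act in the uterine epithelium, were both higher without overlap. *Dlx5* was at 55.01 ± 21.0 CPM in the control and 101 ± 19.6 CPM in *Gp130* ecKO (SD, n = 3 each), with a log2 fold change of 0.87. *Dlx6* was at 21.4 ± 7.99 and 45.4 ± 11.0 CPM, with a log2 fold change of 1.08. Without control 2 both passed with edgeR, at adjusted p of 0.04255 and 0.03455.

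Of 11 other *Sox* genes, 9 were tested, with 1 higher and 3 lower at an unadjusted p below 0.05. *Sox18*, an endothelial relative of *Sox17* in the SOXF subgroup, went the other way from it. It was at 106 (control 1), 61.5 (control 2) and 39.2 (control 3) CPM in the control and at 16.4, 23.9 and 24.0 CPM in *Gp130* ecKO uteri 1 to 3, and edgeR gave a log2 fold change of −1.68 ± 0.37 (SE) at an unadjusted p of 0.002183. *Sox11* was at 1.04 to 3.88 CPM in control uteri and 0.136 to 0.249 CPM in *Gp130* ecKO, and *Sox5* was at 14.4 to 45.5 and 47.0 to 121 CPM. Without control 2 both passed with edgeR (*Sox11* at an adjusted p of 0.01579, *Sox5* at 0.03854), and *Sox18* did not (0.06224). The genes for the other GATA factors and their FOG cofactors were tested in 5 of 7 cases. *Gata3*, *Gata5* and *Zfpm2* were lower at an unadjusted p below 0.05, with control means of 1.87, 2.10 and 2.60 CPM. *Zfpm1*, which encodes the cofactor FOG1 and was named after its values were seen, was higher (12.9 ± 5.12 against 26.6 ± 4.44 CPM, SD, n = 3 each, adjusted p = 0.0345 with edgeR without control 2). The median log2 fold change was −0.40 over the *Sox* list and −1.23 over the *Gata* list, against −0.05 over all tested genes.

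*Foxo3*, another forkhead factor of the FOXO family, was at 41.5 (control 1), 60.2 (control 2) and 32.5 (control 3) CPM in the control and at 91.6, 81.1 and 74.2 CPM in the *Gp130* ecKO uteri. The groups did not overlap, in the direction opposite to *Foxo1*, with a log2 fold change of 0.88 ± 0.24 (SE) at an unadjusted p of 0.007858 with edgeR. Per transcript length, on the deposited TPM scale, *Foxo1* was 1.28 to 3.802 times *Foxo3* in control uteri and 0.66 to 0.777 times in *Gp130* ecKO uteri, a ratio taken after the values had been seen. Of the 18 tested genes of the list of other *Foxo* genes and FOXO targets, 5 were higher and 1 was lower at an unadjusted p below 0.05, with a median log2 fold change of 0.13. *Txnip*, which encodes an inhibitor of thioredoxin, was at 138 to 372 CPM in control uteri and 444 to 1506 CPM in *Gp130* ecKO. *Cat*, which encodes catalase, was at 26.6 to 62.8 and 81.3 to 88.8 CPM. With control 2 left out, *Foxo3* and *Cat* passed with edgeR, at adjusted p of 0.03373 and 0.03455, and *Txnip* did not (0.1499).

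All 22 other listed subunits of the BAF, PBAF and related complexes were tested, with 3 higher and 4 lower at an unadjusted p below 0.05 and a median log2 fold change of −0.05. *Arid1b*, the alternative to *Arid1a* in the complex, was named after its values were seen, and was higher without overlap (62.7 ± 11.6 against 99.3 ± 14.5 CPM, SD, n = 3 each), with a log2 fold change of 0.66 at an unadjusted p of 0.01083 with edgeR. *Smarca2*, a catalytic subunit, had a log2 fold change of 0.97, *Bcl7a* 0.81 and *Smarcd3* −0.9975. For the EGF receptor family and its ligands, in which ERRFI1 acts on the receptor, 9 of 12 genes were tested. The receptor gene *Erbb2* was at 49.1 to 109.7 CPM in control uteri and 89.2 to 188 CPM in *Gp130* ecKO (unadjusted p = 0.07549 with edgeR). The ligand gene *Areg* was at 16.1 to 127 and 0.136 to 1.73 CPM, with an unadjusted p of 0.0005895 from edgeR and an adjusted p of 0.01696 without control 2. Over all 6 uteri its adjusted p was 0.06357 with edgeR's quasi-likelihood test and 1.458e-09 with DESeq2. *Nrg1*, which encodes neuregulin, was at 0.485 to 1.07 and 1.28 to 3.50 CPM, with an unadjusted p of 0.01224 from edgeR.

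Of 17 further receptors, transcription factors and cochaperones of receptivity, 7 were lower at an unadjusted p below 0.05 and 1, the estrogen receptor gene *Esr1*, was higher (log2 fold change 1.42). The 7 included *Egr1*, an immediate early gene (106 ± 39.6 against 20.7 ± 5.39 CPM, SD, n = 3 each), and *Cebpb*, a C/EBP factor needed for decidualization, at 31.9 to 134 CPM in control uteri and 20.7 to 30.3 CPM in *Gp130* ecKO. Over all 6 uteri the adjusted p with edgeR's quasi-likelihood test was 0.05478 for *Esr1*, 0.05478 for *Egr1* and 0.1121 for *Cebpb*. DESeq2 gave 9.819e-07, 9.021e-08 and 0.01438 over the same uteri. Without control 2 the adjusted p from edgeR was 0.02328 for *Esr1*, 0.007892 for *Egr1* and 0.02481 for *Cebpb*. *Pgr* itself, named after its values were seen, was at 57.2 to 202 CPM in control uteri and 172 to 272 CPM in *Gp130* ecKO, with overlapping groups and an adjusted p of 0.3078 with edgeR. Among 13 P4 and hedgehog targets, 6 were lower at an unadjusted p below 0.05 and 0 were higher, with a median log2 fold change of −0.91. *Areg* and *Alox15*, which encodes a lipoxygenase, were among the 6 (log2 fold change −5.89 and −3.01). *Cyp26a1*, which encodes a retinoic acid hydroxylase, was at 1767 (control 1), 17.4 (control 2) and 408 (control 3) CPM in the control and at 48.4, 4.499 and 6.84 CPM in the *Gp130* ecKO uteri, so that control 2 was below *Gp130* ecKO 1. Over all 6 uteri the adjusted p with edgeR's quasi-likelihood test was 0.06335 for *Alox15* and 0.123 for *Cyp26a1*. From DESeq2 it was 1.151e-07 and 0.01542. Leaving out control 2 gave edgeR adjusted p of 0.008201 for *Alox15* and 0.0442 for *Cyp26a1*. *Ihh*, a target of PGR in the epithelium, was at 531 (control 1), 163 (control 2) and 312 (control 3) CPM in the control and at 207, 173 and 156 CPM in the *Gp130* ecKO uteri, with overlapping groups and a log2 fold change of −0.91 (adjusted p = 0.2043 with edgeR), and it too was named after its values were seen.

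Of 11 genes of WNT signalling, cell polarity and adhesion that have been studied with MSX, 3 were higher and 2 lower at an unadjusted p below 0.05. *Lif*, the gland-derived ligand of the GP130 receptor complex, was at 5.66 (control 1), 11.3 (control 2) and 29.5 (control 3) CPM in the control and at 44.8, 48.8 and 38.3 CPM in the *Gp130* ecKO uteri, without overlap, and its log2 fold change of 1.52 had an adjusted p of 0.1478 with edgeR. *Ror2*, a receptor of noncanonical WNT ligands, was lower without overlap (60.0 ± 10.8 against 30.5 ± 8.14 CPM, SD, n = 3 each). *Wnt5b*, which encodes a WNT ligand, was at 5.20 to 5.67 CPM in control uteri and 2.40 to 4.19 CPM in *Gp130* ecKO.

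**Figure D5:**
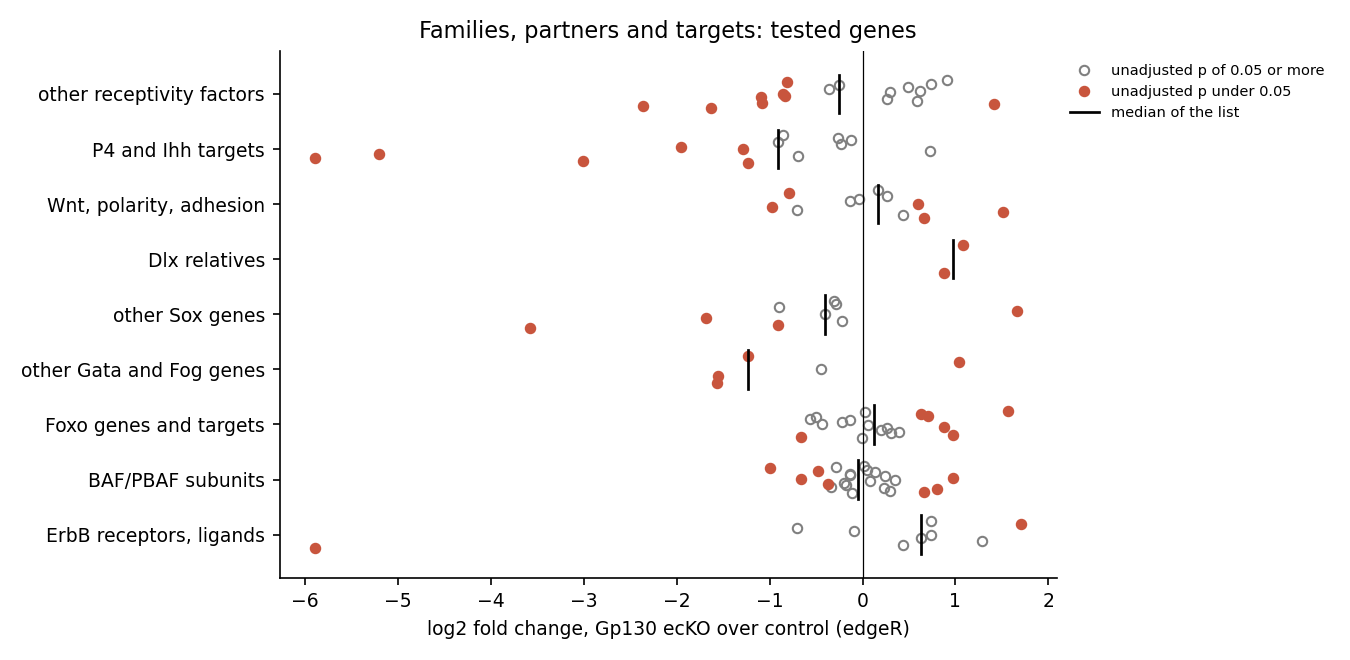
Log2 fold change (edgeR's quasi-likelihood fit over 6 uteri, *Gp130* ecKO over control) of the tested genes of each list, where filled points have an unadjusted p below 0.05 and the black line is the list's median. The medians run from −1.23 for the other *Gata* and Fog genes to 0.98 for *Dlx5* and *Dlx6*.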

How the data were processed

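RNA of whole uteri (3 control, 3 *Gp130* ecKO) was sequenced from poly(A), strand-specific libraries. Per the labels and the study's methods, the authors trimmed reads with fastp 0.23.2, removed ribosomal RNA reads, mapped the rest to GRCm39 with STAR 2.7.10a and estimated expected counts per gene with RSEM 1.3.3. The annotation version and the strand setting of the counting are not given in the sources used here. TPM and FPKM were deposited beside the counts, already scaled for gene length and library depth. TPM was used for levels between genes, and FPKM was not used.

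Expected counts were rounded and tested with edgeR 4.0.16 in R 4.3.3 (filterByExpr, TMM, quasi-likelihood F test without the legacy setting, Benjamini-Hochberg, BH, over all 16605 genes). Genes were called at an adjusted p under 0.05 and more than 2-fold. Of the 56748 gene identifiers, 56017 are in GENCODE M39, which gave symbols and positions. Total counts of 13960748 to 25906443 per uterus limit the precision of low values, such as *Msx2* in control 3, with 16 counts, or *Sox11* and *Areg* in *Gp130* ecKO. Alternatives were DESeq2 1.42.0, other edgeR tests, scalings and filters, counts left unrounded, a block for the replicate number, and the omission of each uterus in turn. Named genes are the 7 regulators, *Il6st*, from each list the 3 with the largest change at a mean of at least 1 CPM and any with an adjusted p under 0.05, and the 2 genes most like each regulator. The regulators and lists were chosen with earlier results of these data known. Within a group, the counts of every pair of libraries differed by more than sampling noise.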

Additional observations from a re-analysis of the deposited data

How the results depend on the processing

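Over 16 alternatives for each regulator, *Arid1a*, *Errfi1* and *Msx2* stayed on the same side of the threshold in all, and no regulator changed direction. The exact permutation test is not among the 16, since its smallest p of 0.1 with 3 uteri against 3 cannot pass the threshold. An adjusted p below 0.05 was reached by *Msx1* with edgeR's exact and likelihood ratio tests (log2 fold change 1.32 in both) and DESeq2 (1.33), by *Foxo1* with the same 3 (−1.02, −1.02 and −1.01), and by *Sox17* with DESeq2 (0.80). With each uterus left out in turn, the log2 fold change ranged from 1.07 to 2.00 for *Msx1*, 0.84 to 2.60 for *Msx2*, 0.62 to 1.13 for *Sox17*, 0.81 to 2.09 for *Gata2*, −1.22 to −0.72 for *Foxo1*, 0.16 to 0.43 for *Arid1a* and 0.04 to 0.21 for *Errfi1*. The highest *Gata2*, *Msx1* and *Sox17* values and the lowest *Foxo1* value came without control 2, the omission that brought them past the threshold. The cause was not tested.

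The count of called genes was 26 in all, 7 with the legacy form, 1252 with the exact test, 1317 with the likelihood ratio test, 1546 with DESeq2, 105 without a filter and 6 with the replicate block. With each uterus left out it ranged from 1 to 892, the highest without control 2. Among the listed genes it was 0, and 14 with the exact test, 15 with the likelihood ratio test, 20 with DESeq2, 4 without a filter and 0 to 19 with each uterus left out. Without a filter, more genes were tested. Upper-quartile factors moved the median log2 fold change of all genes from −0.05 to −0.11.

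Same-numbered uteri correlated at 0.104, 0.069 and −0.196 in their deviations from the group means. Deviations within a group balance out, so these values cannot tell whether the numbers pair the uteri. Controls 1 and 3 and *Gp130* ecKO 2 and 3 each correlated best with a uterus of another number, and control 2 and *Gp130* ecKO 1 with their own. With the replicate block the log2 fold change was 1.49 for *Msx1*, 1.59 for *Msx2*, 0.83 for *Sox17*, 1.39 for *Gata2*, −0.97 for *Foxo1*, 0.22 for *Arid1a* and 0.11 for *Errfi1*, with no call among them.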

Other observations

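For each regulator, the 2 genes with the highest Pearson's r of log2(CPM + 0.5) over the 6 uteri were looked up among 10259 other genes with a mean of at least 10 CPM (10260 for *Msx2*). For *Sox17* they were *Ppp3r1*, which encodes the regulatory subunit of calcineurin (r = 0.9996), and *Sesn1* (r = 0.9981), which is also in the FOXO list (adjusted p = 0.1524 with edgeR, and 0.0442 without control 2). *Ppp3r1* was at 151 (control 1), 229 (control 2) and 135 (control 3) CPM in the control and at 262, 312 and 278 CPM in the *Gp130* ecKO uteri. For *Msx1* they were *Rspry1* (r = 0.9974) and *Galm*, which encodes galactose mutarotase (r = 0.995). *Galm* spanned a wider range than *Msx1*, at 28.8 (control 1), 326 (control 2) and 29.3 (control 3) CPM in the control and 550.1, 896 and 656 CPM in the *Gp130* ecKO uteri.

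For *Gata2* they were *Tmem14a* (r = 0.9956) and *Cdk14* (r = 0.9943), and for *Foxo1* *Zfp422* (r = 0.9971) and *Mcl1*, an antiapoptotic BCL2 family member (r = 0.995). *Mcl1* varied less than *Foxo1*, from 279 to 349 CPM in control uteri and from 243 to 250.2 CPM in *Gp130* ecKO. For *Msx2* they were *Gstt2* (r = 0.9965) and *Kyat3* (r = 0.9919), which were highest in *Gp130* ecKO 3. *Afdn* (r = 0.9927) and *Ash1l* (r = 0.9885) followed *Arid1a*, both lowest in *Gp130* ecKO 3, and *Cdadc1* (r = 0.9607) and *Vill* (r = 0.957) followed *Errfi1*. At a lower limit, 789 of the genes compared had an r above 0.9 with *Msx1*, 749 with *Sox17*, 392 with *Gata2* and 27 with *Errfi1*. These values describe likeness in 6 libraries only.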
